A study of Mus musculus with 6 samples.

Results

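The genes described here encode the heat shock proteins and J-proteins that fold and refold proteins mainly outside the endoplasmic reticulum, measured in the choroid plexus of young and aged mice. They were chosen by symbol: every gene whose name begins with Hspa, Hspb, Hsph, Hspd, Hspe, Dnaja, Dnajb or Dnajc and a number, together with the heat shock factor Hsf2 and the co-chaperone Bag3, leaving out the endoplasmic reticulum chaperones Hspa5, Dnajb9, Dnajb11 and Dnajc3 and the HSP70 partner Hspbp1. This gave 66 genes, read by 155 probe sets (groups of short probes that measure the same transcript), of 18193 genes with a probe set of their own. No probe set was named for Hsf1 alone, and Dnajc19 was named only on probe sets that carry several symbols. The cytosolic HSP90 genes do not match the pattern of names: Hsp90aa1 is given further on as a partner gene, and no probe set was named for Hsp90ab1 alone. Choosing by symbol did not keep the group to the cytosol and the mitochondria, since 10 of the 66 genes (Hspa13, Dnajb12, Dnajb14, Dnajc1, Dnajc10, Dnajc14, Dnajc16, Dnajc18, Dnajc22 and Dnajc25) encode proteins described as residing in or at the endoplasmic reticulum.

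The tissue was the whole choroid plexus of the lateral ventricles, the secretory tissue that makes cerebrospinal fluid, from male CD1 mice, an outbred stock in which animals differ genetically. The aged group held 3 mice of 18 months and the young group 3 mice of 2 months. Each of the 6 Affymetrix arrays carried RNA from both lateral plexuses of 1 mouse. The labels name no genetic alteration and no treatment for either age. The array reports the level of a transcript relative to the same transcript in another sample, so levels are compared between mice and never between genes.

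Molecular chaperones bind unfolded stretches of other proteins and release them in cycles. HSP70 proteins are loaded with clients by J-proteins (the Dnaj families), opened by exchange factors, and relieved by HSP110 proteins that help to pull aggregates apart. HSP60 and its lid HSP10 enclose proteins imported into mitochondria, and small heat shock proteins hold unfolding proteins in a soluble state without using ATP. When unfolded protein accumulates, the transcription factor HSF1 binds heat shock elements, inverted repeats of the unit GAA, and induces a subset of these genes, while other members are made at a steady rate in every cell. Choroid plexus epithelial cells secrete protein heavily and are rich in mitochondria.

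The sites through which HSF1 acts were read from RefSeq promoter windows of 300 bases (250 before and 50 after each annotated start, assembly GRCm38.p6), which were given for 54 of the 66 genes. The stretches shown are those of some of the inducible chaperones described with the values, of Dnajb6, which holds a run of 3 units, and of Hspb6, which holds a pair and had the smallest p-value of the group. Capitals mark the motif, a pair of inverted units spelled GAANNTTC or TTCNNGAA and read on both strands, with 12 flanking bases in lower case. Hspe1 (HSP10) and Hspd1 (HSP60) lie head to head with no gene between them, and the stretch between them holds 4 alternating units, printed from each gene's own strand.
Hspe1, chr1:55088047-55088088, plus strand: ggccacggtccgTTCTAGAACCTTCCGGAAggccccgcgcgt
Hspd1, chr1:55088047-55088088, minus strand: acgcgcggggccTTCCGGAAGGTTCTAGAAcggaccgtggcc
Hspa1a, chr17:34972241-34972272, minus strand: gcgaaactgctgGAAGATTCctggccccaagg
Hspa1b, chr17:34959323-34959354, minus strand: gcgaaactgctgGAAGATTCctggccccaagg
Hspb1, chr5:135887790-135887841, plus strand: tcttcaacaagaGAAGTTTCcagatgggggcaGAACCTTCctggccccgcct
Hsph1, chr5:149636350-149636381, minus strand: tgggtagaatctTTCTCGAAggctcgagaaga
Dnajb6, chr5:29735840-29735876, plus strand: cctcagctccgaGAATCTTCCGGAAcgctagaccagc
Hspb6, chr7:30553169-30553200, plus strand: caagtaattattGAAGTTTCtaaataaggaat
The 2 stress-inducible HSP70 genes, Hspa1a and Hspa1b, show the same stretch, and their whole windows share 296 of 300 bases (98.7%).

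A pair was found in 17 of the 54 genes with a window (31.5%), against 4587 of 27025 genes overall (17.0%). A run of 3 units (GAANNTTCNNGAA or TTCNNGAANNTTC, each of which contains pairs) was found in Dnajb6, Hspd1, Hspe1 and Hsph1, 4 of 54 (7.41%), against 179 of 27025 genes (0.662%). In Hsph1 that run lies at or past the annotated start and is not printed. These shares count genes, so the single stretch of Hspd1 and Hspe1 is counted for both. The nearly identical windows of Hspa1a and Hspa1b are likewise each counted. A match is a stretch of letters, not a measured binding site. Dnajb1, the J-protein that works with the inducible HSP70, had no match in its windows.

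The comparison between ages asks which chaperone transcripts differ in the aged plexus, and by how much. Of the 66 genes, 57 reached the level at which genes were tested, and 0 passed at a Benjamini-Hochberg adjusted p under 0.05, the threshold used, in the limma fit over all 12681 genes tested, of which 0 passed (0%). At an unadjusted p under 0.05, limma gave 5 members (8.77%), beside 7.05% of all genes. Of these, Hspb6, Hspb2, Dnajb12 and Dnajc9 were higher at 18 months (4 of 57, 7.02%, beside 4.02% of all genes), and Hspa2 was lower (1 of 57, 1.75%, beside 3.03%). The count of lower genes was 2 without replicate 2 of 18 months, and 2 without replicate 3 of that age. The shares lie near the background, and the smallest adjusted p in the group was 0.578. Because whole tissue was measured, fewer cells of a type and less RNA per cell cannot be told apart in any of these values.

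The tested members ranged from -0.70 to 0.90 in log2 difference (18 months minus 2 months). Their median was -0.05, beside 0.00 for all genes tested, and 35 of the 57 (61.4%) were below 0, beside 49.6% of all genes. The median was -0.11 without replicate 1 of 18 months and -0.09 without replicate 2 of 2 months. The median size of a difference, either way, was 0.20 among members and 0.21 among all genes. The 95% confidence interval lay within 1 log2 unit of 0, that is within a 2-fold change in either direction, for 38 of 57 members (66.7%) and for 63.5% of all genes. The ranges of the 2 ages did not overlap for 5 members that were higher at 18 months (8.77%, beside 7.06% of all genes) and 5 that were lower (8.77%, beside 6.25%).

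**Figure D1:**
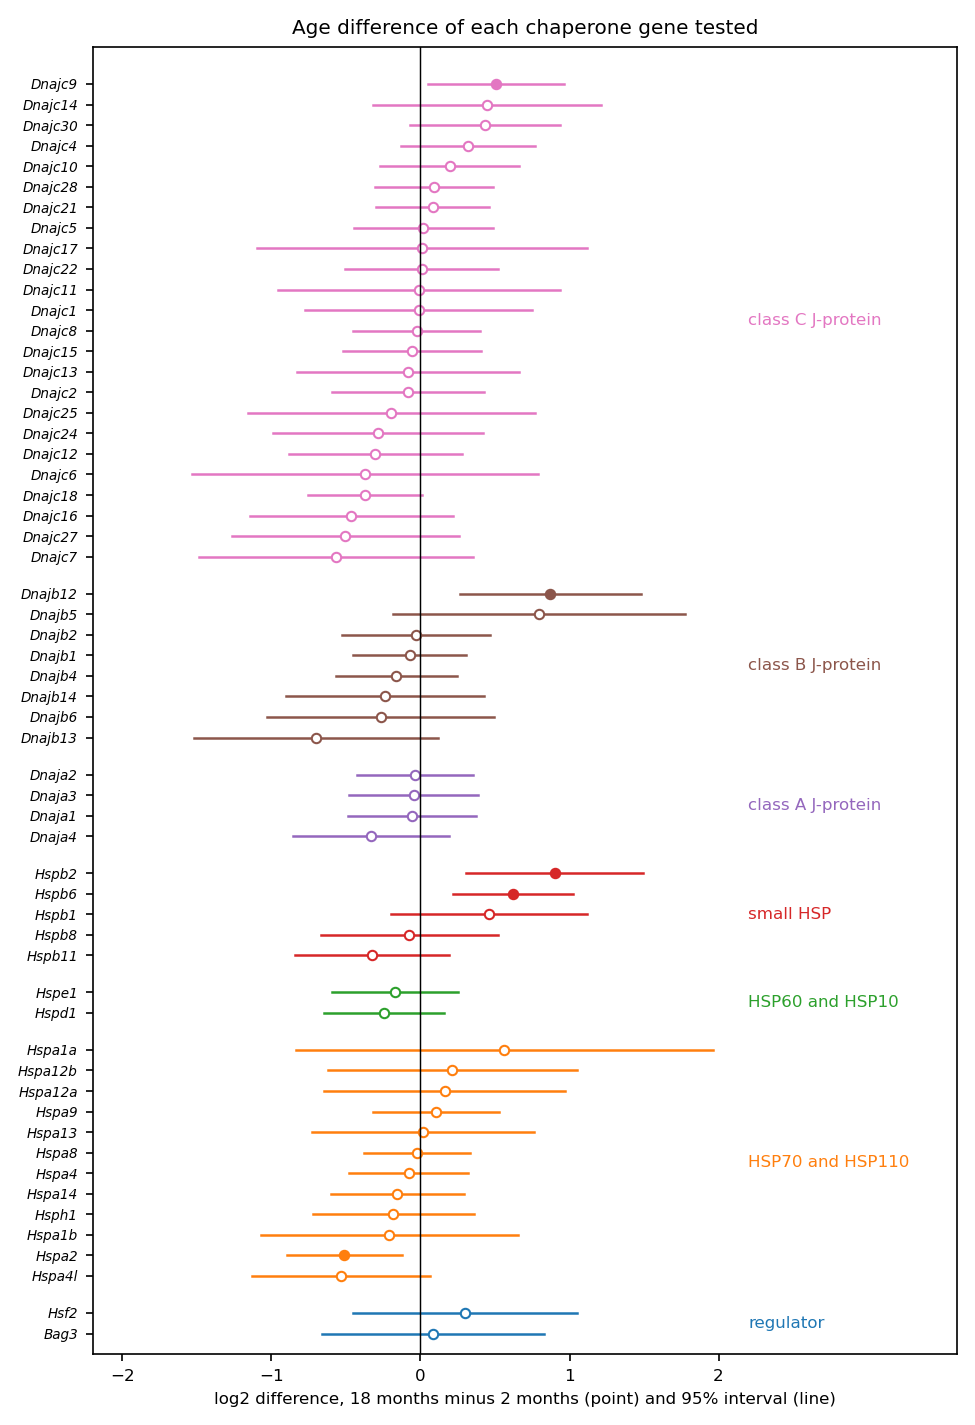
Log2 difference between 18 and 2 months (points) with its 95% confidence interval (lines) for each of the 57 chaperone genes tested, ordered within protein class and coloured by class, from limma over 3 mice of each age. Filled points mark the 5 genes with an unadjusted p under 0.05 and open points the others, whose intervals all cross 0.

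The small heat shock proteins held the 2 members with the smallest p-values. Of the 8 in the group, 5 were tested, 3 were higher and 2 lower at 18 months, with a median difference of 0.46. Hspb6 encodes HSP20, a phosphorylated small heat shock protein best known from smooth muscle and heart. Its log2 intensity was 10.62, 10.45 and 10.75 in the mice of 18 months and 9.87, 10.03 and 10.07 in those of 2 months. Every aged mouse lay above every young one. The means were 10.61 ± 0.15 and 9.99 ± 0.10 (SD, n = 3 each), a difference of 0.62 on the log2 scale or 1.54-fold, with a standard error (SE) of 0.17 and an interval from 0.22 to 1.02 (limma, unadjusted p = 0.00878, adjusted p = 0.578).

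Hspb2 encodes a small heat shock protein first described as a partner of the myotonic dystrophy kinase. It lies next to Cryab, the gene of αB-crystallin, with no gene between them. Hspb2 read 8.20, 8.54 and 8.11 at 18 months and 7.09, 7.81 and 7.24 at 2 months. The ages did not overlap, although the highest young mouse (7.81) came near the lowest aged one (8.11). The difference was 0.90 (SE 0.25, interval 0.31 to 1.49), or 1.87-fold (limma, unadjusted p = 0.00926, adjusted p = 0.582). Cryab itself read 12.70, 12.49 and 12.69 at 18 months and 12.51, 12.46 and 12.79 at 2 months. Its ages overlapped, and its difference was 0.04 (SE 0.18).

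Hspb1, the HSF1-induced HSP27 that also caps actin filaments, read 8.65, 9.69 and 9.17 at 18 months. The young mice were close together at 8.72, 8.68 and 8.72. The aged mice spread on both sides of them, with 1 below and 2 above. Its difference was 0.46 (SE 0.28, interval -0.20 to 1.12, limma unadjusted p = 0.141). Without replicate 1 of 18 months it was 0.72 (unadjusted p = 0.0207 in limma), and without replicate 2 of that age it was 0.20 (limma unadjusted p = 0.414). Another probe set of Hspb1 differed by 0.11 (SE 0.18). Hspb8, which works with Bag3 to send damaged proteins to autophagy, differed by -0.07 (SE 0.25). Hspb11, which despite its name is a subunit of the transport machinery of cilia, read 9.62, 9.31 and 9.99 at 18 months and 9.87, 9.96 and 10.05 at 2 months, a difference of -0.32 (SE 0.22). Without replicate 3 of 18 months it was -0.50 (limma unadjusted p = 0.0491), and without replicate 2 of that age it was -0.16 (limma unadjusted p = 0.478). Hspb3, Hspb7 and Hspb9 were below the level tested.

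The mean log2 intensity of the pericyte and smooth muscle markers, cells in which Hspb6 is well known, lay between 6.005 and 6.42 at 18 months and between 6.21 and 6.36 at 2 months. Of 9 such markers 6 were tested, 2 higher and 4 lower at 18 months, with a median difference of -0.12. Acta2, smooth muscle actin, differed by -0.46 (SE 0.28), Rgs5 by -0.22 (SE 0.31) and Tagln by -0.04 (SE 0.20). Myh11, Cnn1 and Kcnj8 were below the level tested. Of 9 markers of skeletal or cardiac muscle, Myl2 and Mylpf were tested, and the list's mean lay between 6.45 and 6.55 at 18 months and between 6.20 and 6.57 at 2 months. Among the 7 below the level tested, Myh1, a myosin of fast skeletal muscle, read 4.85, 5.68 and 4.49 at 18 months and 2.30, 2.73 and 3.83 at 2 months, with every aged mouse above every young one. Acta1 (0.15), Ckm (-0.19), Myh4 (-0.05) and Actc1 (-0.04), also below that level, did not share this, and the ages overlapped for each. The part of either cell type in the values of Hspb6 and Hspb2 was not tested.

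**Figure D2:**
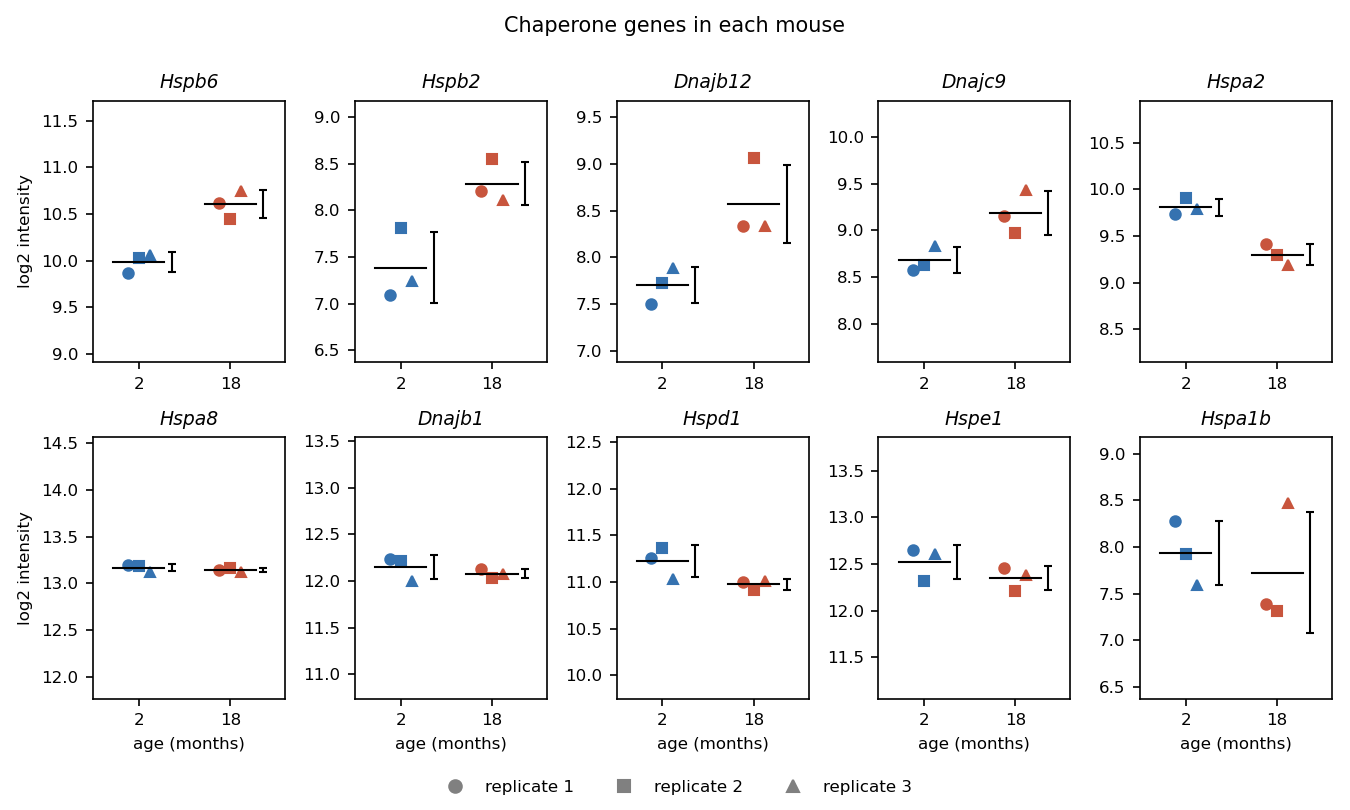
Log2 intensity of 10 chaperone genes in each mouse at 2 months (blue) and 18 months (red), with the mean (line) and SD (bracket) over 3 mice and symbols for the replicate number. The upper row shows the 5 genes with an unadjusted p under 0.05, whose ages do not overlap, and the lower row shows 5 general or inducible chaperones; each panel spans the same height on the log2 scale, so differences can be compared by eye.

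Among the HSP70 and HSP110 proteins 12 of 13 were tested, 5 higher and 7 lower at 18 months, with a median of -0.05. Hspa8, the constitutive HSC70 that drives most folding in the cytosol, read 13.15, 13.16 and 13.12 at 18 months and 13.20, 13.18 and 13.13 at 2 months. The mice of both ages lay within a narrow band, and the difference was -0.02 (SE 0.15, interval -0.38 to 0.33). Hspa9, the HSP70 of mitochondria, differed by 0.10 (SE 0.18, interval -0.32 to 0.53). Hspa14, which sits on ribosomes, differed by -0.16 (SE 0.19).

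Hspa2 was the only member lower at 18 months at an unadjusted p under 0.05. It encodes an HSP70 best known from testis that is also made in other tissues. Its log2 intensity was 9.41, 9.30 and 9.19 at 18 months and 9.73, 9.91 and 9.79 at 2 months. Every aged mouse lay below every young one. The difference was -0.51 (SE 0.16, interval -0.89 to -0.13), or 1.42-fold lower (limma, unadjusted p = 0.0167, adjusted p = 0.636). Without the mouse labelled replicate 3 of 18 months it was -0.46, with an unadjusted p of 0.0501.

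Hspa1a and Hspa1b, the classical stress-inducible HSP70 genes, are so alike that probes for one can also bind transcripts of the other, and their values are uncertain for that reason. Hspa1a read 7.26, 5.15 and 5.12 at 18 months and 5.45, 4.95 and 5.43 at 2 months. A single aged mouse stood about 2 log2 units above the other aged mice, and the remaining arrays lay together. The difference was 0.56 (SE 0.58, interval -0.83 to 1.96), and -0.14 without the high mouse, replicate 1. Hspa1b read 7.39, 7.32 and 8.47 at 18 months and 8.28, 7.93 and 7.60 at 2 months. Here another aged mouse was the high one, and the difference was -0.21 (SE 0.36, interval -1.07 to 0.65).

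Hsph1 and Hspa4 are HSP110 proteins. Hsph1, whose promoter window holds the 3-unit run, read 10.82, 11.25 and 11.59 at 18 months and 11.42, 11.37 and 11.42 at 2 months, a difference of -0.18 (SE 0.23). The aged mice spread on both sides of the young ones. Hspa4 differed by -0.08 (SE 0.17). Hspa4l, the third HSP110 gene, read 9.92, 10.23 and 9.64 at 18 months and 10.85, 10.29 and 10.24 at 2 months. Its ages were separate by a narrow margin, and the difference was -0.53 (SE 0.25, interval -1.13 to 0.06, limma unadjusted p = 0.0711). Without replicate 2 of 18 months it was -0.68 (limma unadjusted p = 0.0465), and without replicate 1 of 2 months it was -0.34 (limma unadjusted p = 0.213). The atypical members Hspa12a and Hspa12b differed by 0.16 (SE 0.34) and 0.21 (SE 0.35), and Hspa13, a microsomal member, by 0.02 (SE 0.31). Hspa1l was below the level tested.

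Hspd1 (HSP60) and Hspe1 (HSP10), whose shared promoter stretch was printed above with its 4 units, were both lower at 18 months, and neither passed. Hspd1 read 11.00, 10.91 and 11.01 at 18 months and 11.26, 11.37 and 11.03 at 2 months. Its ages did not overlap, though the highest aged mouse (11.01) lay just below the lowest young one (11.03), and the difference was -0.25 (SE 0.17, interval -0.65 to 0.16, limma unadjusted p = 0.189). Hspe1 read 12.45, 12.21 and 12.38 at 18 months and 12.64, 12.31 and 12.60 at 2 months. Its ages overlapped, and the difference was -0.17 (SE 0.18, interval -0.60 to 0.25). The 9 tested members described as mitochondrial, these among them, were 4 higher and 5 lower, with a median of -0.01 and 0 at an unadjusted p under 0.05.

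J-proteins deliver clients to HSP70. The 4 of class A, which resemble the bacterial protein most closely, were all lower at 18 months, with a median of -0.05: Dnaja1 differed by -0.06 (SE 0.18), Dnaja2 by -0.04 (SE 0.16), the mitochondrial Dnaja3 by -0.05 (SE 0.18) and Dnaja4 by -0.33 (SE 0.22). None reached an unadjusted p under 0.05, and Dnaja1, Dnaja2 and Dnaja3 each turned slightly above 0 (0.01 to 0.03) without replicate 2 of 18 months. Dnaja4 read 9.89, 9.77 and 9.55 at 18 months and 9.88, 10.43 and 9.88 at 2 months. The highest aged mouse lay just above 2 of the young ones.

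Of 11 class B J-proteins 8 were tested, 2 higher and 6 lower, with a median of -0.12. Dnajb12 encodes an endoplasmic reticulum membrane J-protein that takes part in disposing of misfolded membrane proteins. It read 8.34, 9.06 and 8.34 at 18 months and 7.50, 7.73 and 7.89 at 2 months. Every aged mouse was above every young one, and 1 aged mouse stood apart at 9.06. The difference was 0.87 (SE 0.25, interval 0.26 to 1.48), or 1.83-fold (limma, unadjusted p = 0.012, adjusted p = 0.613). A second probe set of Dnajb12 did not show it, reading 7.44, 6.57 and 7.48 at 18 months and 6.92, 7.36 and 6.90 at 2 months, a difference of 0.10 (SE 0.30).

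Dnajb1, the inducible J-protein HSP40, read 12.12, 12.03 and 12.08 at 18 months and 12.23, 12.22 and 11.999 at 2 months, a difference of -0.07 (SE 0.16, interval -0.46 to 0.31). Dnajb6, which keeps polyglutamine proteins from aggregating, read 10.92, 11.04 and 10.94 at 18 months and 11.95, 10.77 and 10.99 at 2 months. Its difference of -0.27 (SE 0.32) came with 1 young mouse about 1 unit above every other array, and without it (replicate 1) the difference was 0.09. The other probe sets of Dnajb6 above the level tested differed by -0.73 (SE 0.46), -0.64 (SE 0.28) and 0.10 (SE 0.36). On the probe set at -0.64 the ages were separate by a narrow margin, and replicate 1 was the lowest young mouse. Dnajb2, a neuronal J-protein that binds ubiquitin chains, differed by -0.03 (SE 0.21). Dnajb5 read 7.36, 8.16 and 8.83 at 18 months and 7.29, 7.76 and 6.91 at 2 months, a difference of 0.79 with wide error (SE 0.41, interval -0.18 to 1.77). It was 1.17 without replicate 1 of 18 months (limma unadjusted p = 0.0164) and 0.44 without replicate 3. The other probe sets of Dnajb5 above the level tested did not show it, at -0.22 (SE 0.21) and 0.30 (SE 0.18). Dnajb4 and Dnajb14 differed by -0.16 (SE 0.17) and -0.24 (SE 0.28), and Dnajb3, Dnajb7 and Dnajb8 were below the level tested.

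Dnajb13 had the most negative difference in the group. It encodes a protein of the radial spokes of motile cilia and sperm tails rather than a general chaperone. Its log2 intensity was 8.35, 8.30 and 7.22 at 18 months and 8.41, 8.91 and 8.66 at 2 months. The lowest aged mouse lay more than 1 unit below the others, and the other aged mice were just below the lowest young one, so that the ages did not overlap. The difference was -0.70 (SE 0.34, interval -1.52 to 0.12, limma unadjusted p = 0.0818), and without the low array it was -0.33. Markers of multiciliated cells were lower as well. All 11 that were tested, of 12, were lower at 18 months, and their mean lay between 8.33 and 8.75 at 18 months and between 8.90 and 9.42 at 2 months (exact permutation test, two-sided, p = 0.1, the smallest that 3 against 3 mice allow). The markers differed unequally: Fam183b by -2.81 (SE 0.77) and Mlf1 by -0.82 (SE 0.19), but Cfap126 by -0.09 (SE 0.22) and Dynlrb2 by -0.02 (SE 0.18). The aged mean of Fam183b (4.55) lay below the level tested. Foxj1, the master regulator of motile cilia, differed by -0.31 (SE 0.18). The aged mouse lowest in Dnajb13, replicate 3, had the highest marker mean of the aged mice (8.75). Whether the marker list has a part in the values of Dnajb13 and of Hspb11 was not tested.

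Class C holds the J-proteins that share only the J domain, with diverse tasks. Of 26 genes 24 were tested, 10 higher and 14 lower, with a median of -0.02, and Dnajc5b and Dnajc5g were below the level tested. Dnajc9, a histone chaperone that recruits HSP70 to chromatin, was the only one at an unadjusted p under 0.05. It read 9.15, 8.97 and 9.43 at 18 months and 8.57, 8.63 and 8.83 at 2 months. Every aged mouse was above every young one, and the difference was 0.51 (SE 0.19, interval 0.05 to 0.96), or 1.42-fold (limma, unadjusted p = 0.034, adjusted p = 0.682). Leaving out 1 mouse took it past 0.05 in 4 of 6 cases: the unadjusted p was 0.0652 without replicate 1 and 0.1 without replicate 3 of 18 months, and 0.0969 without replicate 1 and 0.0792 without replicate 2 of 2 months.

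Further class C genes with small p-values missed even the unadjusted threshold. Dnajc30, a mitochondrial J-protein, read 9.40, 9.80 and 9.15 at 18 months and 8.99, 9.09 and 8.98 at 2 months, a difference of 0.43 (SE 0.21). Without replicate 3 of 18 months it was 0.58 (limma unadjusted p = 0.0332), and without replicate 2 of that age it was 0.26 (limma unadjusted p = 0.238). Dnajc18, an endoplasmic reticulum J-protein, read 9.63, 9.66 and 9.44 at 18 months and 10.02, 9.96 and 9.87 at 2 months, a difference of -0.37 (SE 0.16, limma unadjusted p = 0.0549). The ages were separate for both. For Dnajc18 this held on its brightest probe set only: the others differed by 0.11 (SE 0.21) and -0.31 (SE 0.23), with overlapping ages. Dnajc4 differed by 0.32 (SE 0.19), Dnajc16 by -0.46 (SE 0.28) and Dnajc27 by -0.51 (SE 0.32), each with overlapping ages. Without replicate 3 of 18 months Dnajc16 differed by -0.20, and Dnajc27 differed by -0.28 without replicate 1 of 18 months and by -0.27 without replicate 2 of 2 months. The other 14 tested genes of class C lay between -0.30 (Dnajc12) and 0.45 (Dnajc14, an endoplasmic reticulum protein that helps receptors leave that compartment), and all of their ages overlapped.

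Other class C proteins were named for their roles. Dnajc7, which passes clients between HSP70 and HSP90, read 9.97, 9.54 and 8.87 at 18 months and 9.58, 9.85 and 10.66 at 2 months, a difference of -0.57 with overlapping ages (SE 0.38). It was -0.27 without replicate 3 of 18 months and -0.25 without replicate 3 of 2 months. Dnajc15, of the mitochondrial inner membrane, differed by -0.06 (SE 0.19). Dnajc5, the cysteine string protein of synaptic and secretory vesicles, differed by 0.02 (SE 0.20).

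Dnajc6 encodes auxilin, the neuronal J-protein that strips clathrin coats from vesicles. It read 7.61, 7.70 and 9.32 at 18 months and 8.44, 8.31 and 8.99 at 2 months, a difference of -0.37 (SE 0.48). In each age the mouse labelled replicate 3 was the highest. The mean of 14 tested neuronal markers was also highest in that mouse of each age, at 8.39 and 8.35, and lay between 6.67 and 7.42 in the other 4 mice. The neuronal mean spread widely within each age and the ages overlapped (exact permutation test, two-sided, p = 1), and its part in the values of Dnajc6 was not tested.

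**Figure D3:**
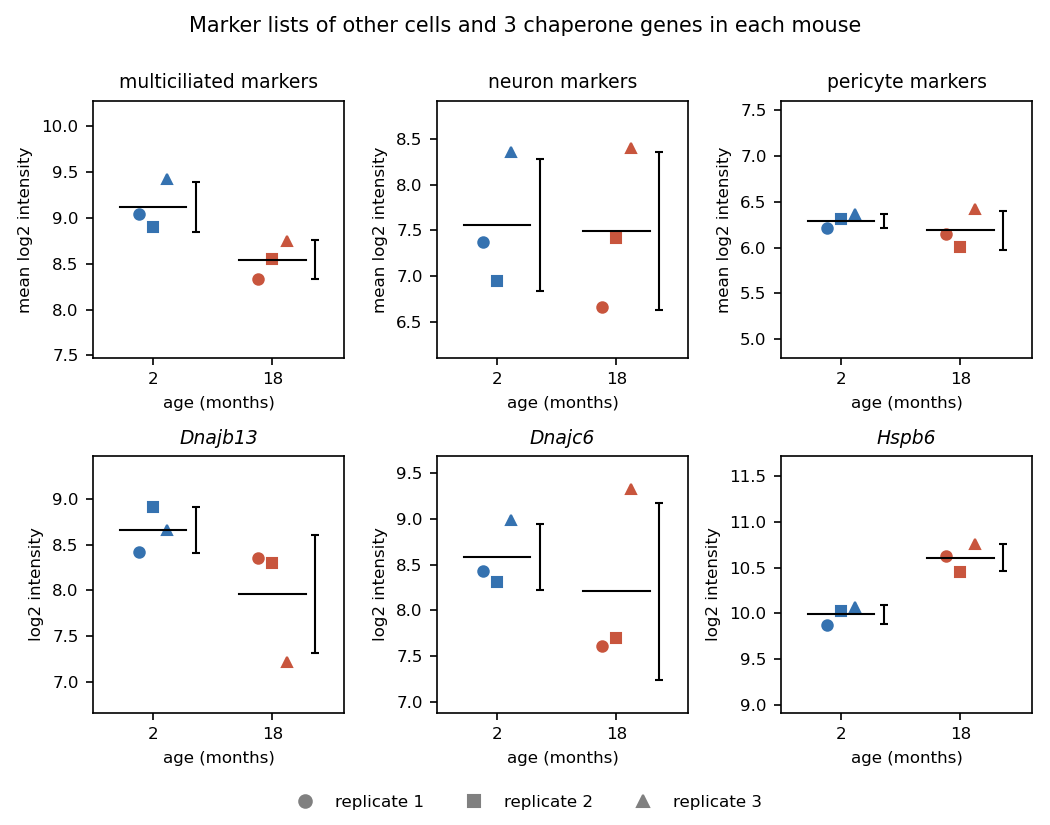
Mean log2 intensity of marker lists for multiciliated cells, neurons, and pericytes with smooth muscle (upper row), and log2 intensity of Dnajb13, Dnajc6 and Hspb6 (lower row), in each mouse at 2 months (blue) and 18 months (red), with mean (line) and SD (bracket) over 3 mice. The multiciliated mean is lower in all 3 aged mice, the neuronal mean and Dnajc6 are highest in replicate 3 of each age, and the pericyte and smooth muscle means overlap while those of Hspb6 do not.

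The regulators varied between mice. Hsf2, a heat shock factor active in development and in proteasome stress, read 5.44, 5.10 and 6.21 at 18 months and 5.56, 5.22 and 5.09 at 2 months, a difference of 0.30 (SE 0.31). Bag3, the co-chaperone that links HSP70 to autophagy, read 7.49, 7.13 and 8.14 at 18 months and 7.16, 7.82 and 7.53 at 2 months, a difference of 0.08 (SE 0.31). In both genes the highest reading was from the aged mouse labelled replicate 3, and the ages overlapped. Without that mouse the differences were -0.02 for Hsf2 and -0.20 for Bag3.

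A list of 12 members was taken as induced by HSF1 (Hspa1a, Hspa1b, Hsph1, Hspa8, Hspa4l, Dnajb1, Dnaja1, Hspb1, Hspb8, Hspd1, Hspe1 and Bag3). It counts Hspa8, which was described above as constitutive. These 12 were 3 higher and 9 lower at 18 months, with a median of -0.07. At an unadjusted p under 0.05, limma gave 0 of them in either direction. The mean over the 12 lay between 10.17 and 10.31 in the aged mice and between 10.22 and 10.41 in the young ones, so the ages overlapped. Sorted by promoter letters instead, the 15 tested members with a pair of units were 5 higher and 10 lower, with a median of -0.16, and Hspb6 was the only one at an unadjusted p under 0.05. The 31 tested members whose windows hold no pair were 11 higher and 20 lower, with a median of -0.05. The 10 tested members of the endoplasmic reticulum were 5 higher and 5 lower, with a median of 0.00.

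Several probe sets of the same gene did not always give the same answer. Of the 155 probe sets, 131 were above the level tested, and 9 of these (6.87%) had an unadjusted p under 0.05 in limma over 27022 probe sets, beside 6.47% overall. Their adjusted counts were 0 of 131 and 1 of 27022 (0.0037%). Of 38 genes with several such probe sets, 15 had all of them on the same side of 0.

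The smallest p-value among the member probe sets belonged to Hspa13, on a probe set that was not its brightest. It read 7.57, 7.22 and 7.50 at 18 months and 8.32, 8.76 and 8.28 at 2 months, a difference of -1.02 (SE 0.21, limma unadjusted p = 0.00237, adjusted p = 0.502). The other 3 probe sets of Hspa13 ranged from -0.59 to 0.02. For Hspa4l, 4 of 5 probe sets were lower at 18 months, from -0.57 to -0.14, and the fifth differed by 0.24. For Dnaja4 all 3 were lower, from -0.57 to -0.33, and the probe set reading 7.91, 8.23 and 8.02 at 18 months and 8.55, 8.53 and 8.78 at 2 months had separate ages (limma unadjusted p = 0.0193, adjusted p = 0.697).

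Hspa8 was read by 4 probe sets, from -0.27 to 0.71, of which 3 were between -0.27 and -0.02. The 3 probe sets of Hspa1b ran from -0.21 to 0.80. The highest of these read 5.88, 5.60 and 4.97 at 18 months and 4.66, 4.69 and 4.71 at 2 months (limma unadjusted p = 0.0196, adjusted p = 0.697). The young mean of that probe set (4.69) lay below the level tested. Both probe sets of Hspe1 were lower, at -0.17 and -0.27. Hspb6, Hspb2, Hspa2 and Dnajc9 each had a single probe set above the level tested, so none of them has such a second reading.

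**Figure D4:**
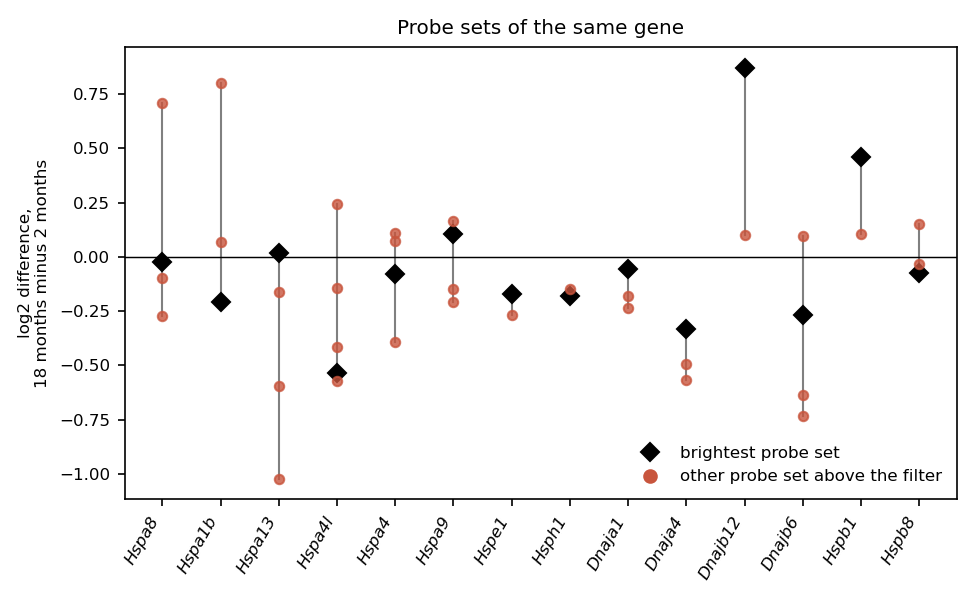
Log2 difference between 18 and 2 months for every probe set above the level tested in 14 chaperone genes with several probe sets, with black diamonds for the brightest probe set, which stands for the gene elsewhere, and red circles for the others. The brightest probe set of Dnajb12 (0.87) is far from its second one (0.10), the 4 of Hspa13 run from -1.02 to 0.02, and the 3 of Dnaja4 are all below 0.

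The partners of these chaperones were read from lists of other genes. Of 16 listed HSP90 genes and co-chaperones 13 were tested, 5 higher and 8 lower, with a median of -0.02. Hsp90aa1, the inducible cytosolic HSP90, read 12.60, 12.56 and 12.61 at 18 months and 12.78, 12.53 and 12.87 at 2 months, a difference of -0.14 (SE 0.17, interval -0.54 to 0.27). Fkbp5, a co-chaperone of steroid receptors that glucocorticoids induce, was the only one of the list at an unadjusted p under 0.05. It read 6.35, 6.61 and 6.51 at 18 months and 5.79, 5.85 and 6.07 at 2 months. Every aged mouse was above every young one, and the difference was 0.59 (SE 0.17, limma unadjusted p = 0.0122, adjusted p = 0.613). Ahsa1, which speeds up the ATPase of HSP90, read 9.34, 9.48 and 9.19 at 18 months and 9.60, 9.67 and 9.499 at 2 months, a difference of -0.25 with separate ages (SE 0.17, limma unadjusted p = 0.181).

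All 11 HSP70 exchange factors and partners were tested, 7 higher and 4 lower, with a median of 0.08, and limma gave 0 at an unadjusted p under 0.05. Sil1 differed by 0.48 (SE 0.21) and Bag2 by 0.45 (SE 0.29). Without replicate 2 of 2 months Sil1 differed by 0.66 (limma unadjusted p = 0.0106), and without replicate 1 of 2 months by 0.36 (limma unadjusted p = 0.175). The 14 subunits of the TRiC chaperonin and prefoldin, which fold actin and tubulin, were 6 higher and 8 lower, with a median of -0.03, and the smallest p-values among them belonged to Cct6a (-0.31, SE 0.15) and Pfdn4 (-0.31, SE 0.18). Of 12 other mitochondrial chaperones and proteases 11 were tested, 4 higher and 7 lower, with a median of -0.11. Trap1, the mitochondrial HSP90, read 8.49, 8.68 and 8.59 at 18 months and 8.90, 8.87 and 9.26 at 2 months, a difference of -0.43 with separate ages (SE 0.18, limma unadjusted p = 0.0535), and the protease Lonp1 differed by 0.53 (SE 0.34). Of 12 further heat shock factors and HSF1 targets 7 were tested, 4 higher and 3 lower, with a median of 0.04. Tsc22d2 differed by -0.34 (SE 0.21) and Hsbp1, which binds heat shock factor trimers, by 0.16 (SE 0.16).

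The 5 genes left out by name (Hspa5, Dnajb9, Dnajb11, Dnajc3 and Hspbp1, the last also counted among the exchange factors and partners) and Hsp90b1 were 1 higher and 5 lower, with a median of -0.15. Dnajb11, a J-protein of the lumen, read 10.38, 10.65 and 10.34 at 18 months and 10.97, 11.07 and 10.80 at 2 months, a difference of -0.49 with separate ages (SE 0.18, limma unadjusted p = 0.0287, adjusted p = 0.682). Its unadjusted p was 0.0771 without replicate 1 and 0.0799 without replicate 3 of 18 months, and 0.0725 without replicate 1 and 0.0788 without replicate 2 of 2 months. Hsp90b1, the HSP90 of that compartment, differed by -0.34 (SE 0.16), and Hspa5, its HSP70, by -0.19 (SE 0.16).

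The epithelial markers of the choroid plexus had a mean between 12.41 and 12.50 at 18 months and between 12.37 and 12.47 at 2 months. Other lists did not overlap between ages: macrophage markers lay between 7.84 and 8.25 at 18 months and between 7.23 and 7.71 at 2 months, pituitary markers between 7.68 and 8.81 and between 5.95 and 6.54, and immediate-early genes, which respond to stimulation, between 7.26 and 7.54 and between 6.87 and 7.24 (exact permutation test, two-sided, p = 0.1 for each, the smallest possible). The pituitary mean came from 3 tested genes of 8 listed, which differed unequally: Gh by 4.98 (SE 0.45), Pomc by 1.34 (SE 0.42) and Lhb by -0.04 (SE 0.27). The young mean of Gh (4.91) lay just below the level tested. Of the listed genes below that level, Prl differed by 3.30 and Cga by 2.26, both with separate ages. Fshb (0.03) and Tshb (0.44), also below it, had overlapping ages. Among the immediate-early genes Fos differed by 1.79 (SE 0.47) and Fosl2 by 0.93 (SE 0.21), both with separate ages. The means of oligodendrocyte markers overlapped between ages, as did those of astrocytes and endothelium (exact permutation p from 0.5 to 0.9). Single oligodendrocyte markers leaned 1 way: of 10 tested, 9 were higher at 18 months and 1 lower, with a median of 0.27. Mog differed by 1.75 (SE 0.33) with separate ages, and Mbp by 0.02 (SE 0.57) with overlapping ages. The part of these lists in the differences of the chaperones was not tested.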

How the data were processed

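Per the labels' protocols, total RNA (miRNeasy extraction) was turned into cDNA by Nugen Pico amplification and carried a biotin label. The authors deposited 1 table of RMA-normalized intensity values, per the submitters' processing notes (version not given in the sources used here). The values ran from 2.47 to 26820.7, so they were on a linear scale, and log2 was taken. Array medians lay between 5.56 and 5.65 on the log2 scale, and 0 pairs of arrays were identical. Names came from the platform's annotation, in which 34945 probe sets carry 1 symbol, 932 several (not used) and 9160 none.

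For each gene the probe set with the highest mean stood for it. Genes whose mean reached the 40th percentile of non-control probe sets (log2 4.92) were tested. The median of 27 bacterial control probe sets was 3.03. Ages were compared with limma 3.58.1 in R 4.3.3 (two-sided, Benjamini-Hochberg adjustment over all 12681 genes). The fit was tested on simulated data. SE and 95% intervals are from the fit, SD over 3 mice, and only 3 arrays for each age limit the precision. Each mouse is a separate animal.

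Every gene of the HSP70, HSP110, HSP60, HSP10, small heat shock, regulator and class A groups was to be named. Of classes B and C, Dnajb1, Dnajb2, Dnajb6, Dnajc5, Dnajc7, Dnajc15 and those with the smallest p-values were named, and of the pathway lists the 2 genes with the smallest p-values and Hsp90aa1. Snap25, Mbp, Ttr, Fos and the brightest gene of each marker list were also to be named. Of these, Mbp, Fos, Gh, Cfap126 and Rgs5 are given with their differences. Dnajb4, Dnajb14, Dnajc4, Dnajc6, Dnajc12, Dnajc14, Cryab, Hspa5, Foxj1, Acta2 and Tagln were chosen after their values were seen. So were Myh1, Mylpf, Acta1, Ckm, Myh4, Actc1, Pomc, Lhb, Prl, Cga, Fshb, Tshb and single probe sets. The same holds for Fam183b, Mlf1, Dynlrb2 and Mog. The members and lists were chosen with earlier results of these data known. The fit did not pair the mice by replicate number. Deviations of same-numbered arrays correlated at -0.02, 0.02 and 0.17, and those of differently numbered arrays at -0.15 to 0.14. With 3 arrays for each age these values cannot show whether the numbers pair the mice. The closing section gives the effect of 17 alternatives. Promoter stretches are credited to RefSeq.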

Additional observations from a re-analysis of the deposited data

How the results depend on the processing

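Over 17 alternatives (other filters, probe set rules, scalings, arrays left out, a replicate block, array weights, a neuronal covariate and an ordinary 2-sample test) the chaperones passing at an adjusted p under 0.05 stayed at 0. Over all genes that count, 0 as reported, was 4 with a 60th percentile filter, 5 with the mean of all probe sets, 5 with median centring, 4 with array weights, 1 with the neuronal covariate, and 0 to 0 when 1 mouse was left out. Chaperones higher at an unadjusted p under 0.05, 4 as reported, were 3 to 5 with 1 mouse left out and 2 without replicate 3 of 18 months and replicate 2 of 2 months together, which lie at the ends of the first principal component. Those lower, 1 as reported, were 1 to 2 with 1 mouse left out, 2 without a filter, 2 with the 60th percentile filter, 3 with the mean of all probe sets, 2 with the neuronal covariate and 2 in the ordinary test. The members' median difference ran from -0.11 (without replicate 1 of 18 months) to -0.0041 (without replicate 2 of 18 months), and was -0.09 without replicate 2 of 2 months. The cause was not tested.

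Hspb2 and Dnajb12 kept an unadjusted p under 0.05 in all 17 alternatives, Hspb6 in 16 (0.0512 without both of those arrays), Hspa2 in 15 (0.0501 without replicate 3 of 18 months and 0.106 without both arrays) and Dnajc9 in 12. Apart from the mean of all probe sets, the alternatives read Dnajb12 from the same probe set, and its second one differed by 0.10 (SE 0.30). No named gene with an unadjusted p under 0.05 changed sign. With the replicate number as a block, 4 chaperones were higher and 1 lower, 0 passed after adjustment, and the median was -0.05, so the block changed no call.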
